A study of Mus musculus with 6 samples.

Results

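The iodothyronine deiodinases of the mouse are encoded by 3 genes, Dio1, Dio2 and Dio3, and all 3 were found by symbol among the 23420 genes of the deposited table. They were selected on measured values, because Dio2 was abundant and had the higher mean count in the mutant uteri. The levels and ratios of the 3 genes are therefore a description and carry no test. RNA was sequenced from uteri of 8-week-old C57BL/6J mice at pseudopregnancy day (PPD) 4.5. For RNA isolation, the paper describes dissected uterine horns without the cervix. Control mice were Foxo1f/f, with both Foxo1 alleles floxed, and mutant mice were PgrCre/+ Foxo1f/f, called Foxo1d/d. Values below are given for the control first and the mutant second. Each genotype had 3 libraries, and each library was made from the pooled RNA of 2 mice. Cre recombinase is made from the Pgr locus, so recombination follows the cells that express or have expressed the progesterone receptor. These include epithelium, stroma and muscle of the uterus but also cells of the ovary and the pituitary, while uterine blood vessels kept FOXO1 protein. The values are the authors' mean raw counts per genotype. Single libraries were not analysed here, so no value below carries a spread between pools.

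Deiodinases are membrane selenoenzymes that remove iodine from thyroid hormones. DIO2 removes an outer-ring iodine from the prohormone thyroxine (T4) and makes the receptor ligand triiodothyronine (T3) inside the cell. DIO3 removes an inner-ring iodine and inactivates both hormones, and DIO1, known mainly from liver, kidney and thyroid, can do either. Dio3 is known for its high activity in the pregnant rodent uterus, around the implanted embryo.

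What the 3 genes share in sequence is a selenocysteine in the active site, which is read from an in-frame TGA codon. The coding sequence around that codon is shown because it defines the family. It was read from GENCODE M21 transcripts on GRCm38, with 30 bases on each side, 5′ to 3′ on the coding strand, and capitals mark the TGA.
Dio1: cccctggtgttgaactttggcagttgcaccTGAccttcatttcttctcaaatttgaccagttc
Dio2: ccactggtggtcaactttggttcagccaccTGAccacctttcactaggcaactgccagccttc
Dio3: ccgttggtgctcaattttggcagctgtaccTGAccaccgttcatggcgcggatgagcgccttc
The codon is number 126 of 257 in Dio1 (chr4:107297700-107297702, minus strand), number 130 of 266 in Dio2 (chr12:90729823-90729825, minus strand) and number 170 of 304 in Dio3 (chr12:110279739-110279741, plus strand). Of the 63 bases, Dio2 and Dio3 had 41 in common, Dio1 and Dio3 had 37, and Dio1 and Dio2 had 36. Dio2 alone of the 3 has another annotated selenocysteine codon, number 263, close to the end of its coding sequence (chr12:90729424-90729426).
Dio2, end of the coding sequence: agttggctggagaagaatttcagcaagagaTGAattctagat

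Foxo1 checks the genotype. The mean count was 3941 in control and 1456 in mutant uteri (Entrez 56458, chr3:52268337-52350109 in RefSeq on GRCm38.p6). The log2 ratio, Foxo1d/d over Foxo1f/f, was -1.50 with a 95% counting interval from -1.55 to -1.45, which is 2.82-fold lower. All log2 ratios are of mean counts with a pseudocount of 1, divided by the total of the genotype. The counting interval is the exact Clopper-Pearson interval of the summed counts and covers counting error only, not the difference between pools of mice. The floxed allele loses the second coding exon, whereas the count covers the whole gene, so reads of the remaining exons stay in it. The uterine transcripts Hoxa10 and Hoxa11 were abundant in both genotypes, with mean counts of 14268 and 13780 for Hoxa10 and 7606 and 7713 for Hoxa11. The mean total of gene counts per library was 26125014 for the controls and 27257963 for the mutants.

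Dio2 (Entrez 13371) lies on chr12:90724552-90739038 on the minus strand. The mean count was 4490 in control and 12406 in mutant uteri. Over the 3 libraries of a genotype these were 13471 and 37219 counts. The log2 ratio was 1.40, with a counting interval from 1.38 to 1.43, so the activating enzyme's transcript was 2.65-fold higher in the mutant mean. In a whole-tissue library, more cells that express a gene and more RNA per cell cannot be told apart. In CPM (counts per gene scaled to the total of the genotype), Dio2 went from 171.9 to 455.1, a gain of 283.3.

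Dio3 (Entrez 107585), the inactivating enzyme, lies on the same chromosome at chr12:110279230-110281097 on the plus strand. Its mean counts were 47.3 in control and 64.7 in mutant uteri, from 142 and 194 counts over the libraries. Its log2 ratio was 0.38. The counting interval from 0.07 to 0.71 lay above 0 but was wide, since it rests on few reads. Dio1 (Entrez 13370, chr4:107291465-107307168, minus strand) was at the limit of detection. Over the libraries it had 8 counts in control uteri (95% Poisson interval 3.45 to 15.8) and 6 in mutant uteri (2.20 to 13.1). Both means, 2.67 and 2.00, are at or under a floor of 3 counts per library, so no ratio is given for Dio1.

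Levels of different genes can be compared only per length, here as CPM per kb of exon. In Foxo1f/f uteri, Dio2 stood at 29.6, Dio3 at 0.892 and Dio1 at 0.0518 on this scale. In Foxo1d/d uteri the levels were 78.3 for Dio2, 1.17 for Dio3 and 0.0372 for Dio1. The order Dio2, Dio3, Dio1 was thus the same in both genotypes, and no neighbours in it had overlapping counting intervals. Dio2 exceeded Dio3 by a factor of 33.1 in control and 67.0 in mutant uteri. It made up 96.9% of the summed deiodinase level in control and 98.5% in mutant uteri, while the share of Dio3 was 2.93% and 1.47%. Among genes that averaged 10 or more counts and have a known length, 88.0% had a lower level per kb than Dio2 in control and 97.1% in mutant uteri. For Dio3 these shares were 14.0% and 16.2%, so its transcript was scarce in both genotypes.

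**Figure D1:**
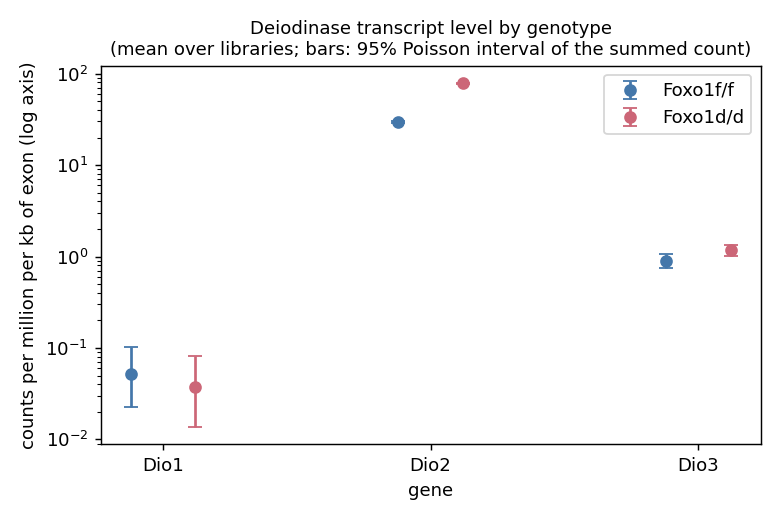
Level of each deiodinase transcript in CPM per kb of exon (log axis) in Foxo1f/f and Foxo1d/d uteri, as the mean over libraries, with bars for the 95% Poisson interval of the summed count. Dio2 stands at 29.6 and 78.3, Dio3 at 0.892 and 1.17, and Dio1 at 0.0518 and 0.0372 with wide, overlapping bars.

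Of 15696 genes that averaged 10 or more counts over both genotypes, 853 (5.43%) were over 1.5-fold higher in Foxo1d/d and 551 (3.51%) over 1.5-fold lower. The median log2 ratio of these genes was 0.02 and the median absolute ratio 0.14. Dio2 and Dio3 passed this count filter and Dio1 did not. Dio2 was over 1.5-fold higher and Dio3 was within 1.5-fold. Since Dio2 was picked for this contrast, nothing is read from that count. The ratio of Dio2 was exceeded by 149 of the 15696 genes. Among the 1199 genes with at least as many counts as Dio2 in Foxo1f/f, Dio2 included, 11 were over 1.5-fold higher and 1 had a larger ratio than Dio2. That gene was Col6a4, a collagen VI chain on the stroma list, at 1.72. These ranks use the values by which Dio2 was chosen, so nothing is read from them either.

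The 6 genes most like Dio2 over both genotype means, by Euclidean distance in log2 CPM, were Plekhs1 (distance 0.16), Alox15 (0.29), Hdc (0.38), Lrp2 (0.42), Scube1 (0.50) and H2-Aa (0.54). Only 2 values per gene enter this distance, so it says no more than that the levels in counts and the ratio were alike. Plekhs1 averaged 4241 and 13601 counts, at a log2 ratio of 1.62. Alox15, an arachidonate lipoxygenase, had 5303 and 13846 and a ratio of 1.32. Hdc, the enzyme that makes histamine, had a ratio of 1.27. Lrp2 encodes the endocytic receptor megalin and had a ratio of 1.22. Scube1 (0.89) and H2-Aa (0.67), which encodes an MHC class II chain, were higher by less.

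**Figure D2:**
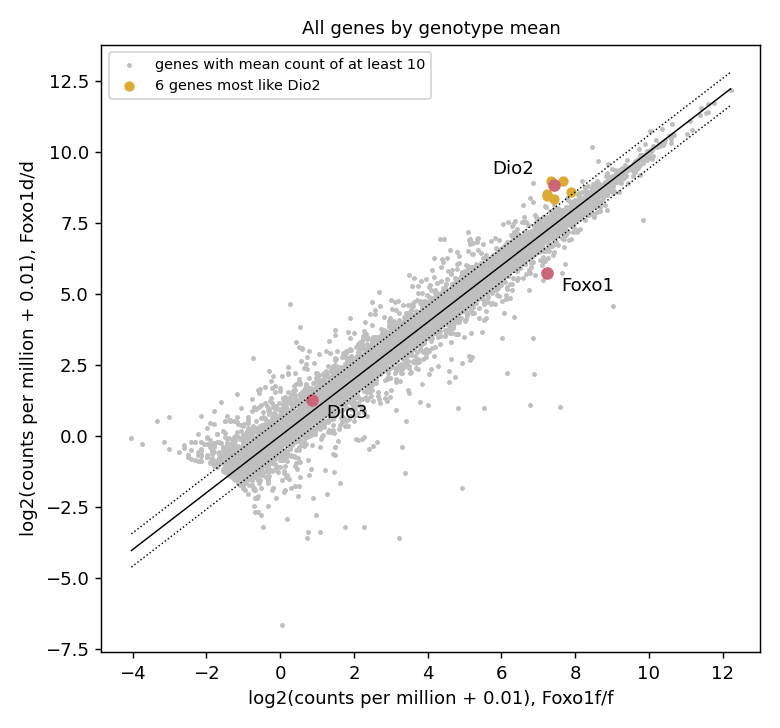
Each gene that averaged 10 or more counts, by its log2 CPM (0.01 added) in Foxo1f/f (x axis) and Foxo1d/d (y axis); the solid line marks equal values and the dotted lines 1.5-fold. Dio2 lies above the upper dotted line with its 6 most similar genes (yellow), Foxo1 below the lower dotted line, and Dio3 within the lines at low counts.

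The upstream sequence of Dio2 is shown because Dio2 is the deiodinase that differed most between the means. RefSeq (GRCm38.p6) gives 1 promoter for each of the 3 genes. The 250 bases before the start of Dio2 (chr12:90739039-90739288, minus strand) are printed 5′ to 3′ on the strand of the gene, with motif matches in capitals. RefSeq starts Dio2 600 bases upstream of GENCODE, and the window belongs to the RefSeq start.
Dio2 promoter: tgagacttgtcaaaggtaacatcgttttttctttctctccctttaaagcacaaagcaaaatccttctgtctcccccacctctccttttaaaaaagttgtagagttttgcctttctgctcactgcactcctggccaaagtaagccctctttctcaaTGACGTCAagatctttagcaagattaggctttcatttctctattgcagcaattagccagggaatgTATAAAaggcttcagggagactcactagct
The motifs searched on both strands were the cAMP response element TGACGTCA, the forkhead core GTAAACA and the TATA box TATAAA, and the matches found do not overlap. Dio2 had 1 TGACGTCA match, which begins 95 bases before the start, and 1 TATAAA match, which begins 30 bases before it. Of all 32851 promoters, 508 (1.55%) held TGACGTCA in these 250 bases. TATAAA was held by 4063 (12.4%), among them that of Dio3, where it begins 31 bases before the RefSeq start. GENCODE starts Dio3 at chr12:110279068, inside its window (chr12:110278980-110279229), so this match lies within the GENCODE gene. GTAAACA was held by 1040 promoters (3.17%), and these letters were in the window of none of the 3 deiodinases. The window of Dio2 had a GC content of 41.6% and that of Dio3 69.6%, beside a median of 52.4% over all promoters. These matches are a description of the sequence. No measurement of factor binding was used here.

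The genes around Dio2 and Dio3 were described for their position. Of the nearest 3 measured genes on each side of Dio2, Cep128 (log2 ratio -0.06), Adck1 (0.28) and Tshr (0.45) were within 1.5-fold. Nrxn3, 390 kb away with mean counts of 35.3 and 12, was lower at -1.54. The other 2 had mean counts under 10. Dio3 belongs to the imprinted Dlk1-Dio3 locus, where Dlk1, Rtl1 and Dio3 are expressed mainly from the paternal allele and the noncoding RNAs Meg3, Rian and Mirg from the maternal one. The 5 listed locus genes that averaged 10 or more counts had a median log2 ratio of -0.08 and lay between -0.38 and 0.30. None was past 1.5-fold, a count near the shares of all genes (5.43% higher, 3.51% lower). Meg3 had mean counts of 5206 and 4969 (ratio -0.13), and Dlk1 132.7 and 131.3 (ratio -0.08). Dio3os, a noncoding gene that ends 1.16 kb before Dio3 in RefSeq, had mean counts of 187.7 and 150.0. Its ratio of -0.38, with an interval from -0.57 to -0.20, had the opposite sign to that of Dio3. Among the other measured neighbours of Dio3, Ppp2r5c (0.01), Dync1h1 (-0.21) and B930059L03Rik (-0.22) were within 1.5-fold, and 2 had mean counts under 10. In GENCODE, the span of Dio2 overlaps that of a noncoding gene on the opposite strand, Gm26512. Overlap of their exons is not given here, and the strand setting of the counting is not given in the sources used. Without strand, reads from any exon bases that both genes share cannot be told apart.

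Thyroid hormones enter cells through membrane transporters. Of 5 transporter genes described here, 4 averaged 10 or more counts, and none of these 4 was past 1.5-fold in either direction, beside 5.43% higher and 3.51% lower over all genes, with a median log2 ratio of 0.08. Slc7a5, the light chain of an amino acid exchanger that also carries thyroid hormones, had a ratio of 0.43 (interval 0.36 to 0.50). Its partner Slc3a2 had a ratio of 0.12, Slc16a10 0.04 and Slc7a8 -0.22. Slco1c1, a T4 transporter of the brain barriers, was scarce, with mean counts of 8.33 and 6.00.

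The nuclear receptors of T3 were present in both genotypes. Thra stood at 23.9 CPM per kb in control and 21.98 in mutant uteri, and Thrb at 4.36 and 3.90. Their log2 ratios were -0.12 and -0.16. Rxra and Rxrb, partners of these receptors on DNA, had ratios of -0.02 and -0.11, and Rxrg was scarce with mean counts of 11 and 12.3. The 8 coregulators described here, which include the corepressor Ncor1, the deacetylase Hdac3 and the coactivators Ncoa1 and Med1, lay between -0.11 and 0.14. None of the 5 receptors and partners and none of these 8 was past 1.5-fold. With 5.43% of all genes higher and 3.51% lower, nothing is read from counts of 0 in lists of this size. Per kb, Dio2 stood above Thra in both genotypes.

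DIO2 protein is short-lived and is marked for breakdown by ubiquitin. The 6 genes listed for this turnover had a median log2 ratio of -0.01. None was past 1.5-fold, beside 5.43% higher and 3.51% lower over all genes, so that count says little about the list. Wsb1, which encodes the substrate adaptor of a DIO2 ubiquitin ligase, had mean counts of 3934 and 4076 and a ratio of -0.01. Marchf6, another ligase gene, had a ratio of 0.00, and the deubiquitinase genes Usp33 and Usp20 had ratios of -0.11 and 0.06. Ube2g2 was at 0.09, and Ube2j2, with mean counts of 52.0 and 47.7, at -0.18.

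Selenoprotein synthesis needs dedicated factors and a supply of selenium. Of 9 genes listed for it, 1 was over 1.5-fold higher and none over 1.5-fold lower, beside shares of 5.43% and 3.51% over all genes, so nothing about the list is read from that count. The median log2 ratio was 0.08. The gene past 1.5-fold was Lrp8, which encodes a receptor for selenoprotein P. The mean count was 72.7 in control and 173.3 in mutant uteri, a ratio of 1.18 (interval 0.96 to 1.43). Selenop itself, the plasma carrier of selenium, was far more abundant per kb, at 269.3 and 224.7 CPM per kb, with a ratio of -0.26. Secisbp2 (0.03) and Eefsec (0.24), which serve the reading of TGA as selenocysteine, were within 1.5-fold.

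Ttr, which encodes the carrier transthyretin, had mean counts of 113.7 and 47.3 and was lower in Foxo1d/d at a log2 ratio of -1.31 (interval -1.62 to -1.04). Crym, a cytosolic T3-binding protein, had mean counts of 10.3 and 18.7 and a ratio of 0.73, with an interval from 0.13 to 1.47. Alb had mean counts of 6.00 and 4.67, and Serpina7 had no count in either genotype.

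Of 8 genes listed as responsive to thyroid hormone in other tissues, 7 averaged 10 or more counts. Of these 7, 1 was over 1.5-fold higher (5.43% of all genes), 1 over 1.5-fold lower (3.51% of all genes) and 5 within 1.5-fold, and nothing about the list is read from 1 gene in each direction. The median log2 ratio was 0.04, with 4 positive and 3 negative ratios. Thrsp, a regulator of lipid synthesis, had mean counts of 140.3 and 538.0 and a ratio of 1.87 (interval 1.72 to 2.04). Me1, which makes NADPH for the same process, had mean counts of 679.3 and 389.0 and a ratio of -0.86 (interval -0.97 to -0.76). Klf9, which T3 receptors regulate directly in brain and liver, had a ratio of -0.25, and Hr, a corepressor gene induced by T3 in brain, 0.16. The calcium pump gene Atp2a2 had a ratio of 0.04 and Gpd2 0.06. Thrsp is also abundant in adipose tissue, whose markers are given below.

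In brown fat and other tissues, receptors that raise cAMP induce Dio2. Values are given for 4 such genes, and no median or direction of the list is read from them. Adrb1 (36.3 and 62.3, ratio 0.70) and Adrb3 (29.0 and 54.3, ratio 0.82) were over 1.5-fold higher with few counts. None of the 4 was over 1.5-fold lower. Over all genes the shares were 5.43% higher and 3.51% lower, and nothing about the list is read from 2 genes. Tshr, the receptor of thyrotropin, had mean counts of 458.7 and 652.0 and a ratio of 0.45 (interval 0.35 to 0.55). Gpbar1, a bile acid receptor, had 18.3 and 14.7.

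**Figure D3:**
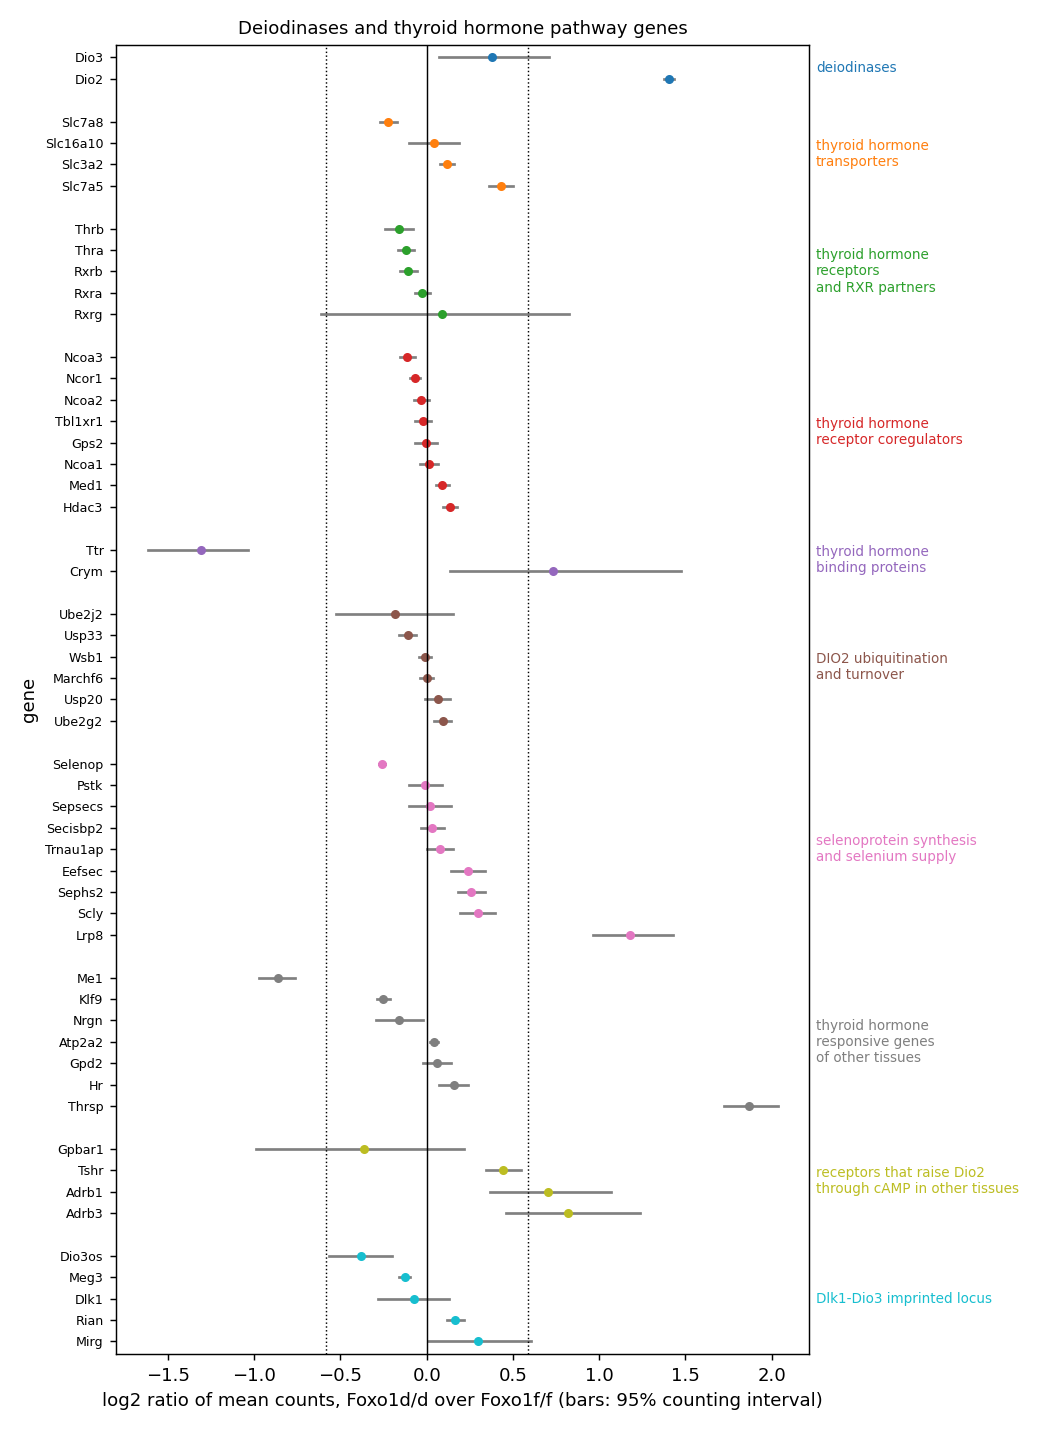
Log2 ratio of mean counts, Foxo1d/d over Foxo1f/f, for the deiodinases and the listed thyroid hormone pathway genes that averaged 10 or more counts; bars are 95% counting intervals and dotted lines mark 1.5-fold. Dio2 (1.40), Lrp8 (1.18), Thrsp (1.87), Adrb3 (0.82), Crym (0.73) and Adrb1 (0.70) stand to the right, and Ttr (-1.31) and Me1 (-0.86) to the left. The nuclear receptors, coregulators and DIO2 turnover genes lie close to 0.

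Markers of white adipocytes moved with the genotype in the same direction as Dio2. Of 8 listed, 7 were over 1.5-fold higher in Foxo1d/d and none over 1.5-fold lower, beside 5.43% and 3.51% of all genes, with a median log2 ratio of 1.84. Adipoq, which encodes the adipocyte hormone adiponectin, had mean counts of 53.7 and 200.7 and a ratio of 1.82, and Cidec, a lipid droplet protein gene, had 30 and 146.7 and a ratio of 2.19. Plin1, Lep, Cfd, Fabp4 and Retn lay between 1.70 and 2.16. Pnpla2, a lipase gene used by many cell types, was the most abundant of the list per kb in control uteri and had a ratio of -0.35. The summed level of the list was 90.6 CPM in control and 120.1 in mutant uteri, and without Pnpla2 it was 17.0 and 62.3. The part of adipocytes in the ratios of Dio2, Thrsp and Adrb3 was not tested. Brown adipocytes are a known site of Dio2. Their defining markers were at or near 0, with mean counts of 1.00 and 0.67 for Ucp1 and no count for Zic1 in either genotype. The other listed brown adipocyte genes were within 1.5-fold or had mean counts under 10. The summed level of that list was 21.9 CPM in control and 20.9 in mutant uteri, with Cox8b its most abundant gene per kb. Most of that sum came from Prdm16 (12.3 and 12.2 CPM) and Ppargc1a (8.40 and 7.34 CPM), which other cell types express as well.

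Markers of the thyroid follicular cell, the source of the hormones, were scarce. Tg, which encodes thyroglobulin, had mean counts of 14.3 and 17.0. The summed level of 5 markers was 6.69 CPM in control and 7.75 in mutant uteri, with Slc5a5 the most abundant per kb in mutant uteri. Without Slc5a5 the sum was 5.42 and 4.78. Slc5a5, the iodide transporter, had mean counts of 33.0 and 81.0 (ratio 1.21), and Iyd 9.67 and 17.0 (ratio 0.69). Duox2, the oxidase gene with the most counts of the list, had 92.3 and 75.7 (ratio -0.35, interval -0.61 to -0.09), and its maturation factor gene Duoxa2 had a ratio of -0.34.

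Markers of the uterine compartments differed in direction, and the most abundant gene of each list is again given per kb, while sums are in CPM. Counts past 1.5-fold on these lists stand beside 5.43% (higher) and 3.51% (lower) of all genes. Hoxa10 and Des each stand on 2 of the lists. On the glandular list, Prss28 (-6.56), Spink1 (-4.70) and Prss29 (-4.46) were lower, Lif (0.99) and Cxcl15 (0.96) were higher, and Foxa2, which defines the glands, had a ratio of 0.04. Reads of Prss28 and Prss29, which are paralogs, may be shared. The summed glandular level was 898.2 CPM in control and 135.9 in mutant uteri, with Prss29 the most abundant of the genes with a known length. Without Prss29 the glandular sums were 372.0 and 112.0. On the luminal list, Calb1 was higher (2.07) and 6 genes were within 1.5-fold, and the sum over these 7 was 629.6 and 810.9 with Krt18 the most abundant per kb. On the stroma list, Col6a4 was higher and the other 7 genes lay between -0.34 and -0.04, with sums of 3987 and 4299 and Vim the most abundant in mutant uteri. Without Col6a4 the stroma sums were 3634 and 3138. The decidual marker Prl8a2 had no count, and the 5 others were within 1.5-fold, with a summed level of 910.5 in both genotypes and Hoxa10 the most abundant. Without Hoxa10 the decidual sums were 364.4 and 405.0.

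All 7 leukocyte markers had positive ratios, with a median of 0.33, and 1 of them, the T cell gene Cd3e, was over 1.5-fold higher (1.09), as were 5.43% of all genes. Their summed level was 317.8 CPM in control and 388.3 in mutant uteri, with Cd68 the most abundant per kb. The 7 myometrium and 6 endothelial markers had negative ratios within 1.5-fold, with medians of -0.27 and -0.22. Their sums were 6578 and 5303 CPM for myometrium and 1418 and 1187 CPM for endothelium, and per kb the most abundant were Acta2 and Cdh5. The 4 mesothelium markers were within 1.5-fold, with sums of 205.0 and 188.2 and Wt1 the most abundant. Wt1 had a ratio of -0.24 and the other 3 had positive ratios, and without Wt1 the sums were 46.1 and 53.5. Of the skeletal muscle markers, Myh4 had no count and Ckm was lower (-0.67). The sums of that list were 109.5 and 108.4 CPM, with Acta1 the most abundant per kb. Which of these cells held the Dio2 transcript was not measured in RNA of unsorted uterine tissue. The part of any of these cell types in the Dio2 ratio was not tested.

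**Figure D4:**
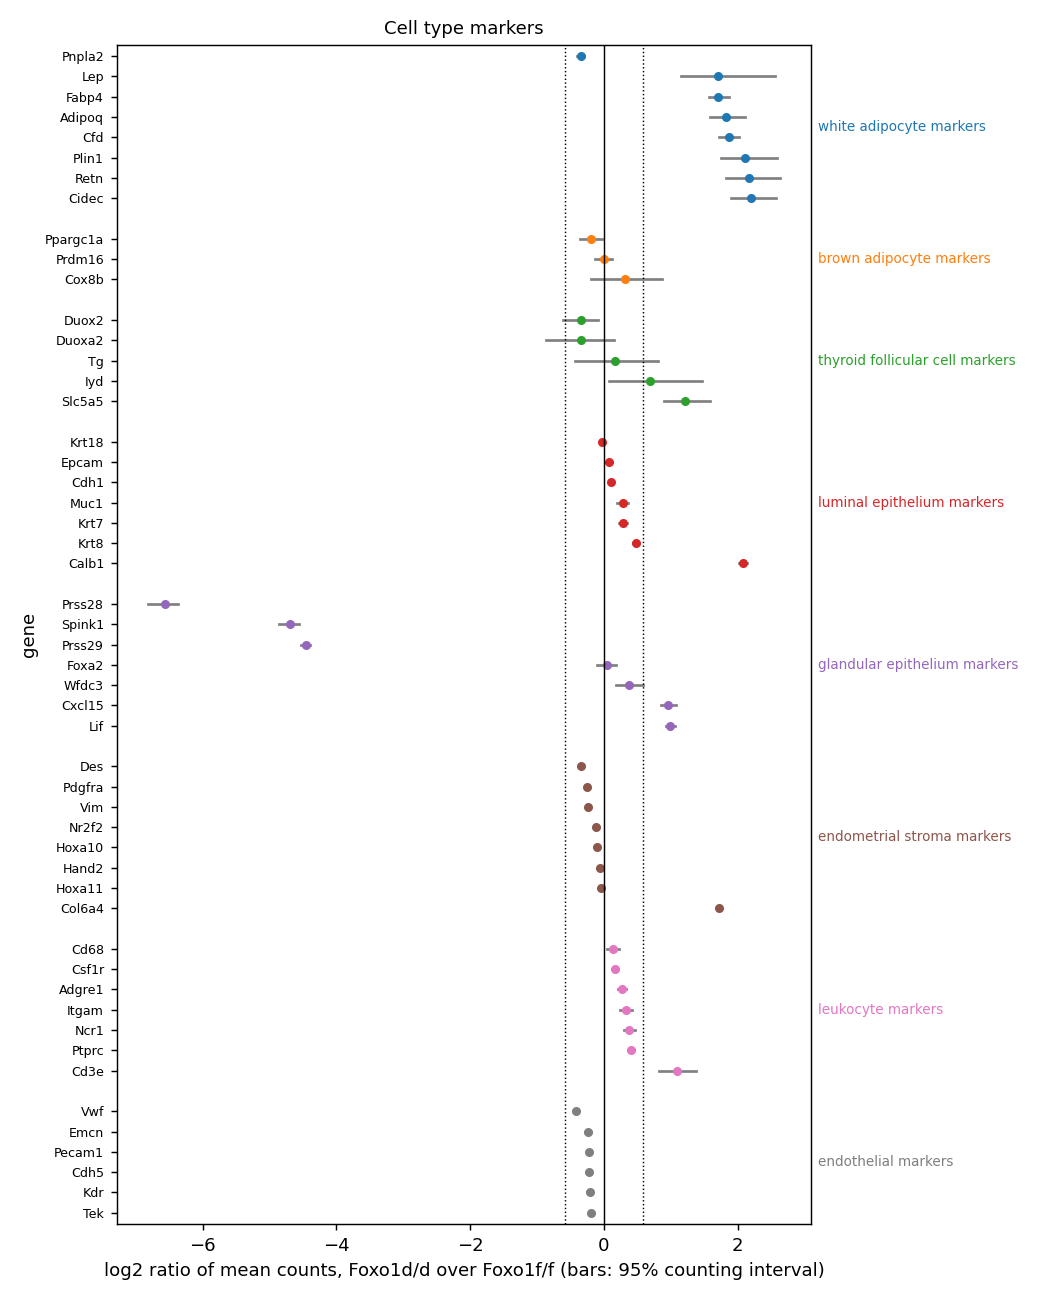
Log2 ratio of mean counts, Foxo1d/d over Foxo1f/f, for markers of 8 cell types that averaged 10 or more counts; bars are 95% counting intervals and dotted lines mark 1.5-fold. The white adipocyte markers other than Pnpla2 lie between 1.70 and 2.19, and the glandular genes spread from -6.56 to 0.99. The 3 brown adipocyte markers with enough counts lie between -0.19 and 0.32, while Ucp1 and Zic1 had too few counts to be drawn.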

How the data were processed

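Uterine RNA of 6 libraries was prepared with poly(A) selection. Per their methods, the authors trimmed the reads, used STAR for mapping to mm10 and picard to drop duplicates, obtained counts on RefSeq genes from HTSeq and ran edgeR. The submitters' processing notes name mm9 instead, and the table holds no coordinates, so the build of the counts is not settled. Positions come from GRCm38. The deposited unit is the mean raw count per genotype, not scaled to depth. Every mean times 3 is whole to within 1e-09, so the counts summed over libraries (78375043 for control, 81773890 for mutant) were recovered. The authors' columns of fold change, average log2 CPM, p-value and FDR were not used.

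Ratios, intervals and levels were computed with Python 3.11.15, numpy 2.4.6, pandas 2.3.3 and scipy 1.17.1, and the ratio step was tested on simulated data. Exon lengths are unions over GENCODE M21 exons, joined by Entrez number. All 133 listed genes used here were found, 5 of them under older symbols. Another 5 are not reported here, so the counts, medians and sums of lists hold for the members used only. Genes named are the deiodinases, Foxo1, list members, measured RefSeq neighbours and the 6 genes most like Dio2. The members and lists were chosen with earlier results of these data known. Alternatives were other scalings, pseudocounts, count filters, folds and exon lengths.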

Additional observations from a re-analysis of the deposited data

How the results depend on the processing

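The log2 ratio of Dio2 lay between 1.38 and 1.40 under other scalings and pseudocounts, that of Dio3 between 0.35 and 0.39 and that of Foxo1 between -1.52 and -1.50. Dio1 has no ratio to compare. The number of genes over 1.5-fold higher and lower was 1588 and 1135 without a filter on low counts, 410 and 277 at a mean of 100 or more counts, and 313 and 220 at a fold of 2, which follows from the genes and fold admitted. Chosen after seeing the data, 3 other scalings gave 794 to 851 higher and 553 to 595 lower genes. The median of the thyroid hormone responsive genes was -0.042 with all members that had any count, since a scarce gene (Myh6) enters it. RefSeq starts Dio2 600 bases upstream of GENCODE. With those bases added to its length, an alternative also chosen after seeing the data, Dio2 stood at 26.8 and 71.0 CPM per kb. Of 66 comparisons with an alternative, 57 stayed close to the main result. Close means within 1.5 times for a count of genes and, for a ratio or level, within 0.5 of the width of its counting interval. For the median of a list, the median of these bounds over its members was used, so a small median could change by a large factor and still count as close. No paired analysis was possible because the table holds 1 mean per genotype, and leaving out each library was not run for the same reason. The counting intervals leave out the spread between pools of mice, and the depth gives no usable ratio for Dio1 and a wide interval for Dio3. Transcript counts do not measure enzyme activity or hormone levels.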

Other observations

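The deiodinases are part of the selenoprotein family. GENCODE M21 annotates a selenocysteine in 24 mouse genes, a list added after the values were seen. Of these, 22 averaged 10 or more counts. Dio2 was the 1 gene of the 22 over 1.5-fold higher in Foxo1d/d, and it was chosen for that direction. The counts of 1 gene higher and 1 lower stand beside 5.43% and 3.51% of all genes. Because the higher gene was picked for this contrast, nothing about the family is read from these counts. The 1 gene over 1.5-fold lower was Gpx3, a secreted glutathione peroxidase, which averaged 12157 and 6745 counts, at a log2 ratio of -0.91 (95% counting interval -0.94 to -0.89). The other 20 lay within 1.5-fold, and the median of the 22 was 0.08. Txnrd1, a cytosolic thioredoxin reductase, had a ratio of 0.34, and Gpx4, which reduces lipid peroxides, 0.06.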
